A study of Mus musculus with 5 samples.

Results

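Ribosome biogenesis and nucleolar genes were followed through injury and regeneration of mouse skeletal muscle, in mesenchymal progenitors and in the tenocytes and mural cells sorted with them. The set holds 52 of the 28001 features in the count tables, chosen by symbol with earlier results of these data known. It has 16 genes for large subunit assembly, 13 of the small subunit processome, 5 for late small subunit maturation and 6 for RNA polymerase I and its regulators. The rest are 3 core proteins of box C/D and 4 of box H/ACA ribonucleoproteins, 4 nucleolar chaperones or scaffolds, and Myc. Each of the 5 groups was 1 library of 10x Chromium 3' v2 single-cell transcripts, from cells sorted for tdTomato out of whole hindlimb muscle that was quiescent or at day 1, 2, 4 or 14 after injury with notexin, a snake venom phospholipase that destroys muscle fibres. All groups shared the C57BL/6J strain and the genotype Hic1CreERT2/CreERT2;Rosa26LSLtdTomato/+, in which both copies of Hic1 carry the recombinase and cells of the Hic1 lineage turn on the red reporter. All mice also received 2.5 mg of tamoxifen in 100 uL of oil on each of 5 days from 8 weeks of age, with 10 days of washout. The labels do not say how many animals made up a library, or whether the quiescent mice received a sham injection.

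Ribosomes are made in the nucleolus, where RNA polymerase I transcribes the long precursor of ribosomal RNA. Small nucleolar ribonucleoproteins guided by box C/D and box H/ACA RNAs methylate and pseudouridylate the precursor, the small subunit processome folds and cuts it, and separate assembly factors carry each subunit to export. Many of these genes are known targets of the transcription factor Myc, and the pathway is commonly raised in cells that leave quiescence to grow.

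Counts are unique molecular identifiers (UMIs), summed over the cells of a class in a library and given as counts per 1000000 UMIs of that class (CPM). Cells with at least 5 UMIs of Tnmd, Fmod, Kera and Chad together were classed as tenocytes (1394 cells), those with at least 5 UMIs of Rgs5, Kcnj8, Abcc9 and Higd1b as mural cells (608 cells), and the remaining 15077 as other cells. With 1 library per group there is no test and no p-value: every difference is between libraries, and time and library cannot be told apart. The 95% intervals are exact and cover counting error only. A gene was compared where its mean over the 5 libraries was at least 5 CPM, and was counted as higher or lower at a 2-fold ratio.

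The libraries held 2170 to 4820 barcodes and 8043771 to 44552329 UMIs, and pairs of libraries shared 8 to 26 barcodes. Median depth of other cells was 3883 UMIs when quiescent and 8788, 11165, 7072 and 4938 UMIs on days 1, 2, 4 and 14. All 8 progenitor markers were detected in other cells of every library, with a summed level of 37922 CPM in quiescent cells and 11703, 15323, 34247 and 39267 CPM on days 1, 2, 4 and 14. Immune markers summed to 2.41 to 11.4 CPM and endothelial markers to 7.45 to 30.9 CPM there. The 9 genes of dissociation stress summed to 4925 CPM at day 1, against 9417 in quiescent cells, and S phase genes to 756 CPM, against 196. The part of cell state, dissociation or depth in the results below was not tested beyond the values given beside them.

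All 52 genes had their highest level at day 1 in other cells, whereas 22.6% of all compared genes did. Their summed level was 2269 CPM in quiescent cells and 10412, 4953, 3045 and 2398 CPM on days 1, 2, 4 and 14. The day 1 level was 4.59-fold (95% interval 4.52 to 4.66) the quiescent one. At that time 48 of the 52 genes were at least 2-fold higher and 0 were lower, beside a background of 12.0% of 9406 compared genes higher and 26.1% lower. The median log2 ratio was 2.07 for the 52 genes and -0.29 for all compared genes. The remaining 4, Nop10, Imp3, Ddx18 and Polr1a, were higher by 1.46-fold to 1.89-fold. Rrp12 and Polr1b lay under 5 CPM in the quiescent library and passed the filter on low values through day 1, and without them 46 of 50 were at least 2-fold higher. Of the 52, 46 lay above the 90th percentile of all compared genes in log2 ratio, and the lowest lay at percentile 78.4.

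**Figure D1:**
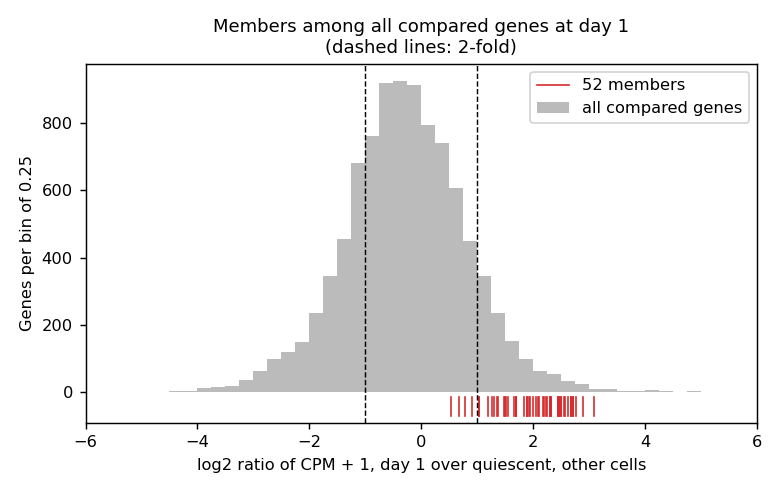
Histogram of the log2 ratio of CPM + 1, day 1 over quiescent, for all 9406 compared genes in other cells (grey bars), with a red tick for each of the 52 ribosome biogenesis genes and dashed lines at 2-fold. All ticks lie right of 0, with a median of 2.07, while the median of all genes is -0.29.

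Other ways to scale the libraries, TMM and DESeq2 size factors, moved the median log2 ratio of all compared genes at day 1 to 0.23 and 0.26, and the share of genes at least 2-fold higher to 24.9% and 25.5%. Under these scalings 52 of 52 members were at least 2-fold higher at day 1, and their median log2 ratio was 2.59 and 2.61. Total RNA per cell is not fixed by any of these scalings. In member UMIs per cell, which also follow sequencing depth, other cells held 8.73 when quiescent and 98.0, 65.1, 24.0 and 12.3 on days 1, 2, 4 and 14.

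**Figure D2:**
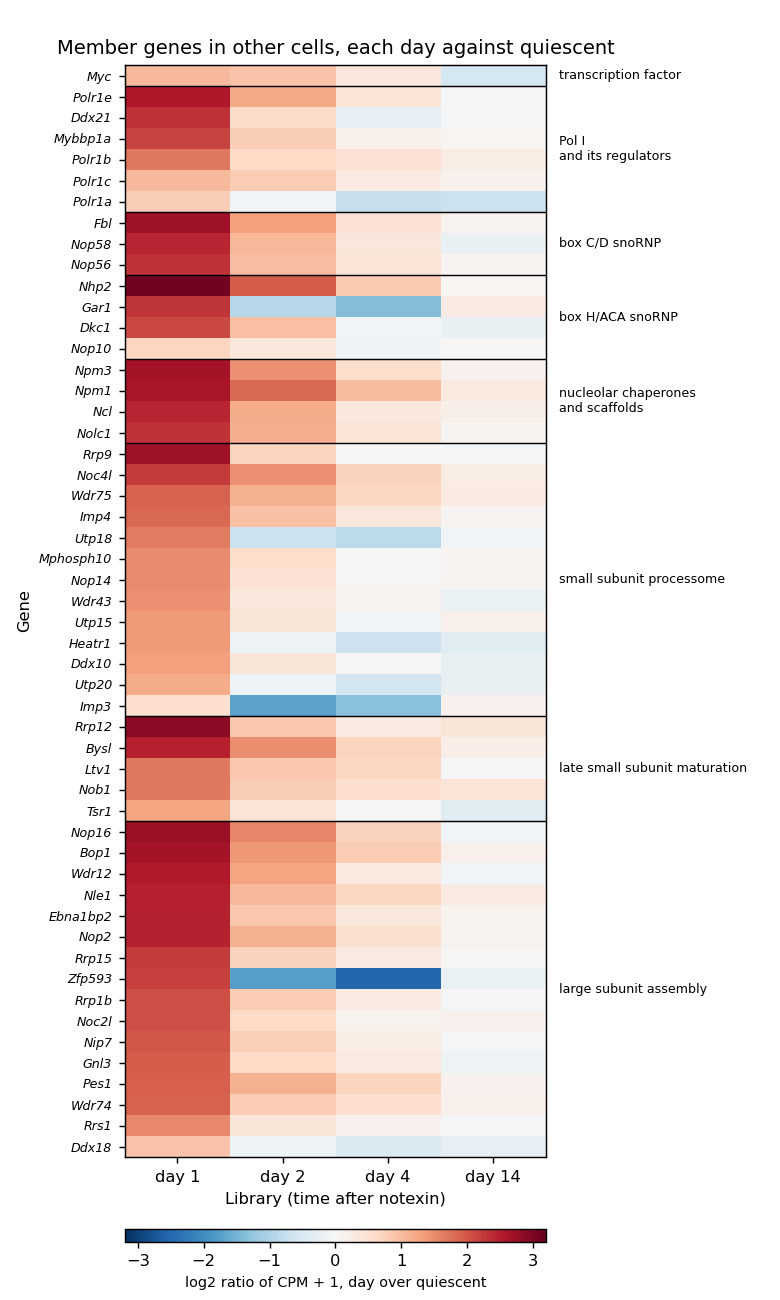
Log2 ratio of CPM + 1 in other cells, each day over quiescent, for the 52 genes (rows, grouped by role and ordered by day 1) in the day 1, 2, 4 and 14 libraries (columns). Day 1 is red in every row, day 14 is near white in nearly all, and Gar1, Utp18, Imp3 and Zfp593 are blue at days 2 and 4. Utp20, Ddx18, Polr1a and Heatr1 were also below quiescent at days 2 and 4.

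Box C/D ribonucleoproteins place methyl groups on the ribose of ribosomal RNA. Their 3 core proteins together stood at 206 CPM in quiescent cells and 1197, 459, 279 and 206 CPM on days 1, 2, 4 and 14, which made day 1 5.80-fold (95% interval 5.51 to 6.11) the quiescent level. Fbl, the methyltransferase fibrillarin, had 83.7 CPM in quiescent cells and 552, 208, 117 and 89.9 CPM on days 1, 2, 4 and 14. Its day 1 level was 6.60-fold (95% interval 6.09 to 7.16) the quiescent one. Nop58, a scaffold that binds the guide RNA, had 63.3 CPM in quiescent cells and 347, 133, 82.0 and 53.8 CPM on days 1, 2, 4 and 14, so its day 14 level was 0.849-fold (95% interval 0.753 to 0.958) the quiescent one. Nop56, the scaffold paired with Nop58, had 59.1 CPM in quiescent cells and 297, 118, 80.2 and 62.7 CPM on days 1, 2, 4 and 14. The day 1 ratios of Nop58 and Nop56 were 5.48-fold (95% interval 4.99 to 6.02) and 5.03-fold (95% interval 4.57 to 5.54). Their intervals overlap each other, and that of Fbl lies above both. All 3 subunits of the complex were lower again at day 2, at 2.00-fold to 2.49-fold the quiescent level.

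Box H/ACA ribonucleoproteins convert uridines of ribosomal RNA to pseudouridine and have 4 core proteins, whose ratios differed more. Dkc1, the pseudouridine synthase dyskerin, had 38.2 CPM in quiescent cells and 168, 75.1, 36.0 and 32.0 CPM on days 1, 2, 4 and 14, with a day 1 ratio of 4.39-fold (95% interval 3.90 to 4.97). Nhp2, which binds the RNA, had 61.6 CPM in quiescent cells and 532, 239, 111 and 63.9 CPM on days 1, 2, 4 and 14. Its ratio of 8.64-fold (95% interval 7.87 to 9.51) lay above those of the other 3. Nop10, a small protein that joins Nhp2 to Dkc1, had 242 CPM in quiescent cells and 388, 305, 223 and 246 CPM on days 1, 2, 4 and 14, and its day 1 ratio was only 1.60-fold (95% interval 1.53 to 1.69). Gar1, which aids substrate turnover, had 19.4 CPM in quiescent cells and 98.9, 9.86, 6.85 and 23.5 CPM on days 1, 2, 4 and 14, with a day 1 ratio of 5.09-fold (95% interval 4.31 to 6.06). The intervals of Nhp2 and Nop10 do not overlap that of any other subunit, while those of Gar1 and Dkc1 overlap each other.

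The nucleolar chaperones and scaffolds summed to 742 CPM in quiescent cells and 4397, 2269.9, 1269 and 884 CPM on days 1, 2, 4 and 14, 5.93-fold (95% interval 5.77 to 6.09) the quiescent level at day 1. Npm1, or nucleophosmin, a histone and ribosome chaperone that shapes the outer zone of the nucleolus, had 420.4 CPM in quiescent cells and 2598, 1504, 848 and 523 CPM on days 1, 2, 4 and 14. Its day 1 ratio was 6.18-fold (95% interval 5.96 to 6.41), and it alone of the 52 genes was still at least 2-fold higher at day 4, at 2.02-fold (95% interval 1.94 to 2.09). Ncl, or nucleolin, which binds ribosomal RNA precursors, had 224 CPM in quiescent cells and 1214, 510.2, 281 and 255 CPM on days 1, 2, 4 and 14, with a day 1 ratio of 5.42-fold (95% interval 5.16 to 5.70). Both stayed above quiescent at day 14, Npm1 at 1.25-fold (95% interval 1.19 to 1.30) and Ncl at 1.14-fold (95% interval 1.07 to 1.21). Npm3, a relative of Npm1, was 6.44-fold (95% interval 5.88 to 7.06) higher at day 1, with 425 CPM at day 1, against 65.9 in the quiescent library. Nolc1, a scaffold of small nucleolar ribonucleoproteins, was 5.08-fold (95% interval 4.46 to 5.83) higher, with 159 CPM at day 1, against 31.3 in the quiescent library. Without Npm1 and Ncl the other 50 genes together were 4.06-fold (3.99 to 4.14) higher at day 1.

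Among the 6 genes of RNA polymerase I and its regulators, which summed to 129 CPM in quiescent cells and 456, 214, 136 and 129 CPM on days 1, 2, 4 and 14, the enzyme's own subunits spread most widely. Polr1e, a subunit of the dimer that helps the enzyme start and elongate, had 38.8 CPM at day 1, against 5.75 in the quiescent library, a ratio of 6.75-fold (95% interval 4.97 to 9.41). Ddx21, an RNA helicase that works in polymerase I transcription and early processing, had 161 CPM at day 1, against 31.7 in the quiescent library, a ratio of 5.06-fold (95% interval 4.44 to 5.79). Mybbp1a, a nucleolar regulator of polymerase I, had 118 CPM at day 1, against 25.3 in the quiescent library, a ratio of 4.65-fold (95% interval 4.02 to 5.42). Polr1c, a subunit shared with polymerase III, had 51.4 CPM in quiescent cells and 106, 90.7, 62.4 and 56.3 CPM on days 1, 2, 4 and 14, so 71.8% of its day 1 excess over quiescent remained at day 2. Polr1a, the largest subunit and part of the catalytic centre, had 11.4 CPM in quiescent cells and 20.2, 10.7, 6.39 and 6.67 CPM on days 1, 2, 4 and 14. Its day 1 ratio was 1.78-fold (95% interval 1.42 to 2.25) and its day 14 ratio 0.587-fold (95% interval 0.428 to 0.806), the lowest of the 52 genes at day 14.

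The small subunit processome, the large complex that folds and cuts the 5' part of the precursor, summed to 255 CPM in quiescent cells and 838, 364, 260.2 and 258 CPM on days 1, 2, 4 and 14. Its 13 genes were 3.28-fold (95% interval 3.13 to 3.44) higher at day 1 together, and 12 of them by at least 2-fold. Rrp9, which binds the U3 small nucleolar RNA, had 21.1 CPM in quiescent cells and 144, 35.1, 20.9 and 20.5 CPM on days 1, 2, 4 and 14. Its day 1 ratio was 6.84-fold (95% interval 5.83 to 8.08). Noc4l, whose yeast counterpart Noc4 acts in small subunit maturation and export, was 5.13-fold (95% interval 4.03 to 6.64) higher, with 47.8 CPM at day 1, against 9.30 in the quiescent library. Wdr75, a counterpart of a yeast subcomplex that joins transcription to processing, was 3.86-fold (95% interval 3.26 to 4.61) higher, with 73.5 CPM at day 1, against 19.0 in the quiescent library. Imp3, a U3-associated protein that helps the U3 RNA pair with the precursor, was the least changed at day 1, at 1.46-fold (95% interval 1.25 to 1.73), whereas its partner Imp4 was 3.67-fold (95% interval 3.19 to 4.25) higher. The other 8, which include the scaffold protein Heatr1 and the helicase Ddx10, ran from 2.43-fold for Utp20 to 3.36-fold for Utp18.

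The 5 genes for late maturation of the small subunit summed to 78.7 CPM in quiescent cells and 289, 148, 114 and 84.2 CPM on days 1, 2, 4 and 14, 3.67-fold (95% interval 3.38 to 4.00) the quiescent level at day 1. Rrp12, an export factor whose role is known from yeast, had 17.6 CPM at day 1, against 1.5 in the quiescent library. That is the highest ratio of the 52 genes and the least precise, 11.7-fold (95% interval 6.50 to 23.5), since it rests on 11 UMIs in quiescent cells. Bysl, or bystin, needed for late processing of the small subunit, was 6.06-fold (95% interval 4.85 to 7.66) higher, with 66.3 CPM at day 1, against 10.9 in the quiescent library. Ltv1, an assembly factor released late, was 3.32-fold (95% interval 2.86 to 3.87) higher, with 83.6 CPM at day 1, against 25.2 in the quiescent library. Tsr1, a GTPase-like factor that blocks early joining of the subunits, was 2.46-fold (95% interval 2.06 to 2.97) higher, with 43.2 CPM at day 1, against 17.5 in the quiescent library. Nob1, the nuclease that makes the last cut of small subunit ribosomal RNA, was 3.32-fold (95% interval 2.85 to 3.90) higher at day 1 and 1.34-fold (95% interval 1.12 to 1.62) higher at day 14.

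The 16 genes of large subunit assembly summed to 424 CPM in quiescent cells and 1899, 732, 515 and 421 CPM on days 1, 2, 4 and 14, 4.48-fold (95% interval 4.32 to 4.64) the quiescent level at day 1, and 15 of them were at least 2-fold higher. Nop16, a nucleolar factor of the early large subunit, was 7.12-fold (95% interval 6.03 to 8.47) higher at day 1, with 139 CPM at day 1, against 19.6 in the quiescent library. Bop1, Wdr12 and Pes1 form one complex needed to process the precursor of the large subunit RNAs. Bop1 was 6.72-fold (95% interval 5.58 to 8.17) higher, with 104 CPM at day 1, against 15.5 in the quiescent library. Wdr12 was 6.13-fold (95% interval 5.14 to 7.37) higher, with 107 CPM at day 1, against 17.5 in the quiescent library. Pes1 was 3.91-fold (95% interval 3.36 to 4.57) higher, with 94.2 CPM at day 1, against 24.1 in the quiescent library, so its interval lies below those of both partners. Ddx18, an RNA helicase, had 64.7 CPM in quiescent cells and 123, 58.4, 47.0 and 53.8 CPM on days 1, 2, 4 and 14, with a day 1 ratio of 1.89-fold (95% interval 1.72 to 2.09), the lowest of the 16. The others, including the methyltransferase Nop2 and the stem cell GTPase nucleostemin, Gnl3, ran from 3.23-fold for Rrs1 to 6.10-fold for Nle1.

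Myc itself had 72.6 CPM in quiescent cells and 149, 137, 93.8 and 49.2 CPM on days 1, 2, 4 and 14. Its day 1 ratio was 2.06-fold (95% interval 1.88 to 2.25), and only Nop10, Imp3, Ddx18 and Polr1a had lower ones. Of its day 1 excess 83.5% remained at day 2, the highest share of the 52. At day 14 it stood at 0.677-fold (95% interval 0.601 to 0.761) the quiescent level. In single cells thinned to 2500 UMIs, the 1212 cells of day 1 with a Myc UMI held a mean of 25.3 UMIs of the other 51 genes, against 22.6 in the 3259 without, a ratio of 1.12 (1.10 to 1.13). In quiescent cells the same ratio was 0.983 (0.924 to 1.04), with 5.41 UMIs in 230 cells with a Myc UMI and 5.50 in 1280 without. Cells without a Myc UMI may still express it, and median depth at day 1 was 9462 UMIs in cells with a Myc UMI and 8611 in those without.

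Myc binds the sequence CACGTG, a palindrome that reads the same on both strands, so the letters were searched in RefSeq windows of 250 bases before to 50 after each gene's start (GRCm38.p6). Of the 45 member genes with a window, 10 held it (22.2%), against 2187 of 27025 genes with a window in all (8.09%): Nle1, Nop2, Mybbp1a, Pes1, Imp4, Utp18, Ltv1, Wdr43, Tsr1 and Utp20. Bop1, Fbl, Myc, Npm1, Rrp12, Rrs1 and Zfp593 had no entry. All 10 were past 2-fold at day 1. Their log2 ratios had a median of 1.77, against 2.07 in the 35 without the letters. In the 250 bases before the start alone, 3 of the 45 members and 1854 of the 27025 genes held a match. The members' share there is thus near that of all genes. For these 3 members the 250 bases are shown with CACGTG in capitals, 5' to 3' on the gene's strand. The Nop2 stretch is chr6:125131633-125131882, plus strand, with the match beginning 60 bases before the start. The Imp4 stretch is chr1:34439579-34439828, plus strand, with the match 121 bases before. The Utp18 stretch is chr11:93885767-93886016, minus strand, with the match 20 bases before.
Nop2: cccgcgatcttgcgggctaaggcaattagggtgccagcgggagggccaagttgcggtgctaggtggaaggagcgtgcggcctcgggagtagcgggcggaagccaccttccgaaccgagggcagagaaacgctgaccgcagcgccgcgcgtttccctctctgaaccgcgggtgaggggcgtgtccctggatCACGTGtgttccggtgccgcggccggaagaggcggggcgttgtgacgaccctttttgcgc
Imp4: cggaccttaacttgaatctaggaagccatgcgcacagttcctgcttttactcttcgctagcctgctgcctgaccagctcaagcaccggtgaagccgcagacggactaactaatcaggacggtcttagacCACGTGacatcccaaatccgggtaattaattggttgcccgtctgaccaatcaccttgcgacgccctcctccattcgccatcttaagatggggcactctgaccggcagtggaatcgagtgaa
Utp18: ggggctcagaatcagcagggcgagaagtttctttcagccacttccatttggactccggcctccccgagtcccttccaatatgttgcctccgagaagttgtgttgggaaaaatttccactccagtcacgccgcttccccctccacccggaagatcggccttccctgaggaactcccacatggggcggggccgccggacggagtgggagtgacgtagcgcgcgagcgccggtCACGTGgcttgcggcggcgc
At day 1 Nop2 was 5.86-fold, Imp4 3.67-fold and Utp18 3.36-fold higher. A match in the letters is not a bound site, and binding was not measured here.

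Between day 1 and the later libraries the levels returned in steps. At day 2, 38 of the 52 genes were at least 2-fold lower than at day 1 and 0 were higher (background 6.15% lower and 10.8% higher), and the log2 ratios had a median of -1.20. Against quiescent, 18 were still at least 2-fold higher at day 2 and 2 were lower (background 9.63% and 18.0%), and the summed level was 2.18-fold (95% interval 2.15 to 2.22) the quiescent one. The count of 18 was 32 and 34 with TMM and DESeq2 factors, and 2 without cells holding 2 or more UMIs of G2/M genes. The share of all compared genes under these settings is not given here, so these counts cannot be read against it. At day 4, 1 gene was higher and 3 were lower (background 6.15% and 9.22%), and the sum was 1.34-fold (95% interval 1.32 to 1.36). At day 14, 0 of the 52 were past 2-fold in either direction (background 1.25% and 0.893%). Their log2 ratios had a median of 0.07, against -0.0009 for all compared genes, and the sum was 1.06-fold (95% interval 1.04 to 1.08). Of the day 1 excess in the sum, 33.0% remained on day 2, 9.54% on day 4 and 1.59% on day 14. Without Npm1 and Ncl these shares were 26.4%, 5.86% and -0.101%. Between neighbouring libraries, 0 genes were higher and 3 lower at day 4 than at day 2 (background 6.25% and 3.08%), and 3, Gar1, Imp3 and Zfp593, were higher and 0 lower at day 14 than at day 4 (background 7.46% and 5.06%).

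The genes did not return at one pace. Besides Myc, Polr1c and Npm1 (49.8%), the genes Noc4l, Wdr75, Pes1 and Nop10 kept 46.8%, 43.8%, 42.8% and 43.1% of their day 1 excess at day 2, beside a median of 24.6% over the 52. Rrp9 and Ddx21 kept 11.4% and 12.9%. At day 2, 8 members were below the quiescent level, as were 57.1% of all compared genes, and at day 4 13 were, as were 53.3% of all. With TMM factors and with DESeq2 factors 4 members were below it at day 2 and 9 at day 4. These examples were chosen after their values were seen.

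**Figure D3:**
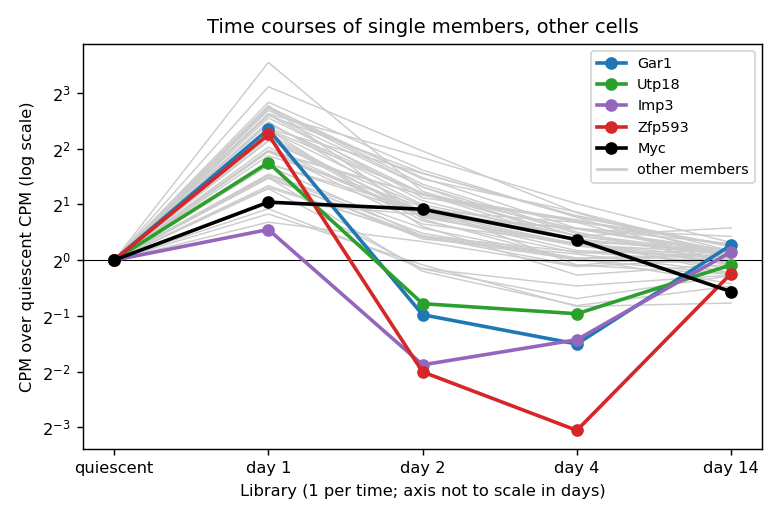
Level of each of the 52 genes in other cells over its own quiescent level (log axis), in the 5 libraries in time order. Gar1, Utp18, Imp3, Zfp593 and Myc are coloured and the rest grey. The first 4 dip below 1 at days 2 and 4 and return near 1 at day 14, while Myc stays high at day 2 and ends below 1. Utp20, Ddx18, Polr1a and Heatr1, in grey, are also below 1 at days 2 and 4.

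Gar1, Utp18, Imp3 and Zfp593 were lower in both the day 2 and the day 4 library than in each of the other 3 libraries, a pattern seen in 11.7% of all compared genes and found for the same 4 members with TMM and DESeq2 factors. Zfp593, a zinc finger protein whose yeast counterpart Bud20 acts in export of the large subunit, had 15.5 CPM in quiescent cells and 73.8, 3.86, 1.86 and 13.1 CPM on days 1, 2, 4 and 14. Imp3 had 23.0 CPM in quiescent cells and 33.6, 6.26, 8.55 and 25.5 CPM on days 1, 2, 4 and 14. Utp18, a processome protein, had 9.71 CPM in quiescent cells and 32.7, 5.66, 4.99 and 9.16 CPM on days 1, 2, 4 and 14, and Gar1 has been given with its complex. For Imp3 and Zfp593 the gap was over 2-fold on the scale of CPM with 5 added, which 0.872% of compared genes showed. The low values appear only in part in the other classes. In tenocytes Gar1 had 4.09 CPM at day 2 and 6.63 at day 4 and Zfp593 had 4.09 and 1.33, on few UMIs. There Gar1, Utp18 and Zfp593 were at least 2-fold below quiescent on both days and Imp3 at day 2 only (background 18.8% and 14.2%). In mural cells Utp18 and Imp3 were so on both days, Gar1 at day 4 only and Zfp593 on neither (background 30.3% and 21.2%). The day 2 and day 4 libraries cannot be told apart here from days 2 and 4 as times, and the pattern was noticed after the values were seen.

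Tenocytes and mural cells had higher day 1 levels too, by smaller factors. Summed over the 52 genes, tenocytes stood at 2559 CPM in quiescent cells and 8251, 3323, 3156 and 2485 CPM on days 1, 2, 4 and 14. Mural cells stood at 2593 CPM in quiescent cells and 5379, 4292, 2826 and 2811 CPM on days 1, 2, 4 and 14. The day 1 ratio was 3.22-fold (95% interval 3.04 to 3.42) in tenocytes and 2.07-fold (95% interval 1.88 to 2.29) in mural cells, below the 4.59-fold of other cells. In the quiescent library both classes were slightly above other cells, tenocytes by 1.13 (1.07 to 1.19) and mural cells by 1.14 (1.04 to 1.25). At day 1 they were below them, at 0.792 (0.778 to 0.807) for tenocytes and 0.517 (0.495 to 0.539) for mural cells.

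**Figure D4:**
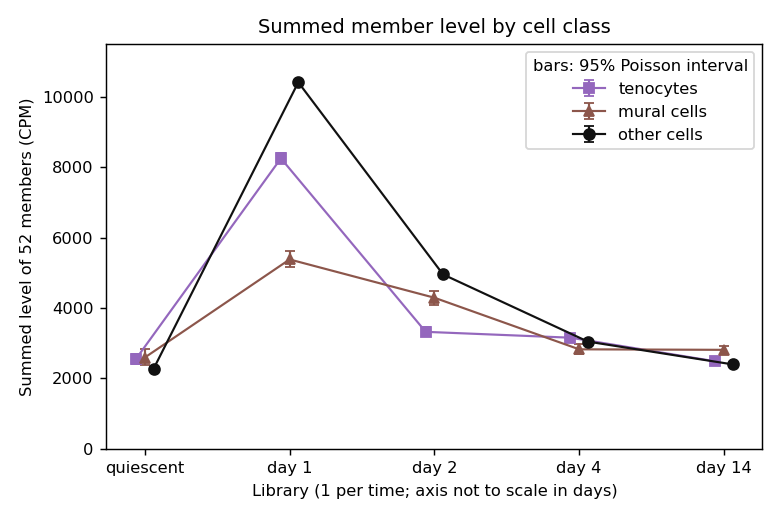
Summed level of the 52 genes (CPM) in tenocytes, mural cells and other cells in each of the 5 libraries, with exact 95% Poisson intervals. The classes start between 2269 and 2593 CPM, separate at day 1 to 8251 in tenocytes, 5379 in mural cells and 10412 in other cells, and lie between 2398 and 2811 at day 14.

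In tenocytes 37 of 51 compared members were at least 2-fold higher at day 1 and 0 were at least 2-fold lower (background 13.0% and 24.3%). Fbl was 5.84-fold (95% interval 4.23 to 8.29) and Nhp2 7.41-fold (95% interval 5.11 to 11.2) higher, with intervals that hold their ratios in other cells. Npm1 was 3.68-fold (95% interval 3.25 to 4.18) higher, with 1978 CPM at day 1, against 538 in the quiescent library, and Ncl 3.02-fold (95% interval 2.57 to 3.58) higher, with 980.1 CPM at day 1, against 324 in the quiescent library. For both, the upper bound lies below the ratio in other cells. Among 30 members with at least 10 UMIs in quiescent tenocytes, the day 1 ratio was lower in tenocytes than in other cells for 26, the exceptions being Nop58, Nop10, Nop14 and Polr1c. The same held for 53.7% of all 5299 compared genes with as many UMIs, and for 85.9% of the 640 that were at least 2-fold higher at day 1 in other cells, so the members' count is near that of other genes higher at day 1. In tenocytes 13.4% of the summed day 1 excess was left at day 2, against 33.0% in other cells, and 9 of 51 members were higher and 6 lower then (background 13.0% and 18.8%). At day 4, 7 were higher and 5 lower (background 13.1% and 14.2%), and at day 14, 6 and 3 (background 10.1% and 4.6%). The class held 99 to 804 cells, and its 7 tenocyte markers summed to 12084 CPM at day 1, against 20642 in the quiescent library.

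In mural cells 27 of 51 compared members were at least 2-fold higher at day 1 and 0 were at least 2-fold lower (background 15.4% and 28.3%). Utp15 and Tsr1 had 0 UMIs in quiescent mural cells and passed the filter on low values through the later libraries. Both are counted among the higher members here and on days 2, 4 and 14. Only 17 members had at least 10 UMIs in quiescent mural cells, so the counts for this class are imprecise. Npm1 was 3.23-fold (95% interval 2.45 to 4.33) higher, with 952 CPM at day 1, against 295 in the quiescent library. Nhp2 was 3.96-fold (95% interval 2.27 to 7.47) and Fbl 3.01-fold (95% interval 1.80 to 5.36) higher, on 14 and 17 UMIs in quiescent mural cells. Some members lay below their quiescent level by less than 2-fold. Among them was Ddx18, with 77.1 CPM at day 1, against 137 in the quiescent library, a ratio of 0.562-fold (95% interval 0.326 to 0.975). Npm1 had similar levels at days 2 and 1, 1014 CPM (42 cells) and 952 CPM (97 cells), whereas in both other classes it was lower at day 2. No interval was computed for that pair in mural cells. Of the summed excess 61.0% remained at day 2. On day 2, 14 members were higher and 4 lower (background 17.4% and 30.3%), on day 4, 6 and 6 (background 16.5% and 21.2%), and on day 14, 7 and 6 (background 13.7% and 11.7%). The mural class held 42 to 243 cells per library. Its mural markers summed to 4825 CPM at day 1, against 16544 in the quiescent library, and tenocyte markers to 436 CPM, against 25.4. Thbs4 made up 427 of the 436 CPM, Tnmd, Mkx and Fmod lay at 2.41, 2.41 and 4.82 CPM, and the other 3 of the 7 were at 0 at day 1. For day 2 the same mural markers gave 4723 CPM, and the 8 progenitor markers 9935 CPM. Quiescent mural cells held 5013 CPM of those progenitor markers, and day 1 mural cells 4427 CPM. The part of other cells in the mural values, the 61.0% included, was not tested.

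To see how the day 1 level was spread over cells, each of the other cells was thinned to 2500 UMIs, which left out 390 quiescent cells and 65, 0, 63 and 398 cells of days 1, 2, 4 and 14. The median cell then held 5 UMIs of the 52 genes when quiescent and 24, 9, 6 and 6 on days 1, 2, 4 and 14. Quiescent cells were narrowly spread, with a 5th to 95th percentile of 2 to 10 UMIs, and 4.50% lay above 10 UMIs. At day 1 the same range was 6 to 42, and 84.6% (83.5% to 85.7%) of cells lay above 10. On day 2 the share above 10 was 36.9% (34.9% to 38.8%), on day 4 14.5% (13.4% to 15.7%) and on day 14 5.77% (4.80% to 6.88%). Most day 1 cells thus lay beyond the quiescent range, and 3 of 4471 held 0 UMIs, against 7 of 1510 quiescent cells. In tenocytes 61.2% (53.7% to 68.4%) of day 1 cells lay above the 95th percentile of quiescent tenocytes, and in mural cells 27.4% (18.2% to 38.2%), where the quiescent library left only 13 cells at that depth.

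**Figure D5:**
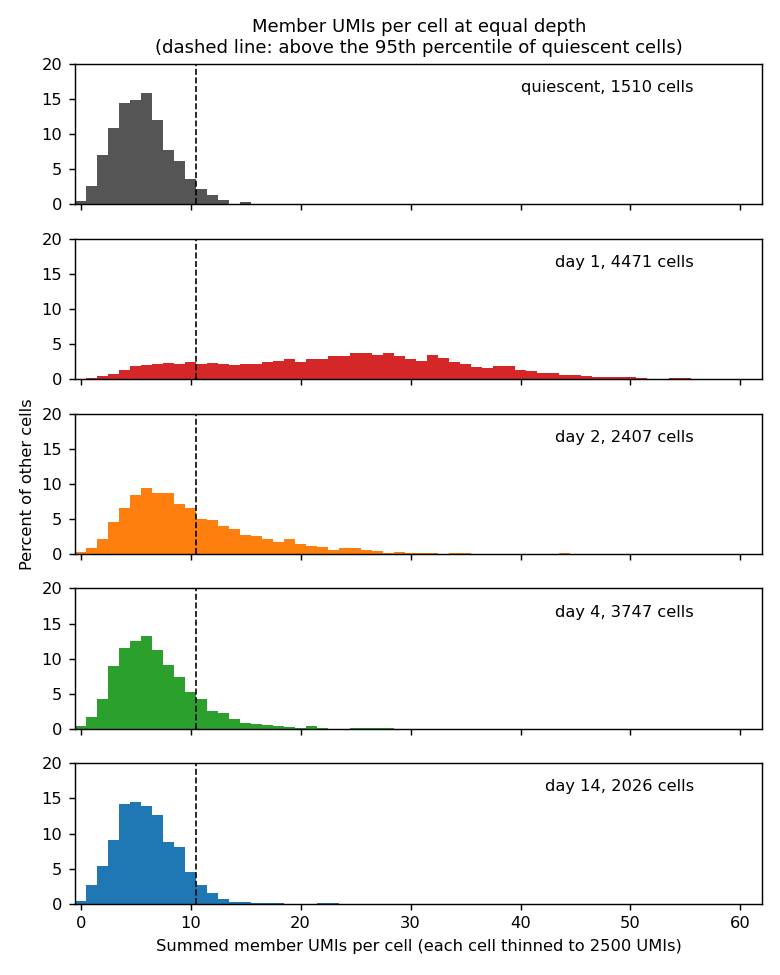
Percent of other cells (vertical axis) by summed member UMIs per cell (horizontal axis), each cell thinned to 2500 UMIs, in 1 panel per library. The dashed line marks the 95th percentile of quiescent cells, which 84.6% of day 1 cells, 36.9% of day 2 cells and 5.77% of day 14 cells exceed.

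The spread beyond counting error, as a coefficient of variation over cells, was 19.8% in quiescent cells and 42.3%, 53.0%, 41.0% and 21.9% on days 1, 2, 4 and 14. The 52 genes were also divided in alternation into 2 sets of 26, and the UMIs of the sets compared cell by cell. Pearson's r between the sets, a description over cells that share a library, was 0.06 in 1510 quiescent cells. It was 0.64 in 4471 cells of day 1, 0.56 in 2407 of day 2, 0.32 in 3747 of day 4 and 0.12 in 2026 of day 14. The 1117 day 1 cells highest in the first set held a mean of 13.4 UMIs of the second, against 4.37 in the 1117 lowest. Among 377 and 377 quiescent cells chosen likewise the means were 2.08 and 1.97, so at this depth cells high in some of the genes were barely higher in the rest.

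At day 1 the deeper cells, cells with Cxcl5, a neutrophil chemokine, and cells with S phase transcripts had higher member levels. The 1512 deepest day 1 cells had 11813 CPM of the 52 genes, against 7329 in the 1512 shallowest, whereas the 634 deepest quiescent cells had 2292 CPM, against 2281 in the 633 shallowest. Day 1 cells with at least 3 Cxcl5 UMIs held 29.3 member UMIs after thinning, against 17.5 in cells with 0, a ratio of 1.67 (1.65 to 1.70) over 1672 and 2034 cells. Day 1 cells holding 2 or more UMIs of S phase genes had 26.6, against 21.4 in the remaining cells, a ratio of 1.24 (1.22 to 1.26) over 1642 and 2829 cells. The S phase ratio was 0.973 (0.897 to 1.05) in quiescent cells and 1.74 (1.69 to 1.78), 1.19 (1.15 to 1.23) and 1.02 (0.963 to 1.08) on days 2, 4 and 14. At day 2, cells holding 2 or more UMIs of G2/M genes had 13.7, against 8.16 in the remaining cells, a ratio of 1.68 (1.63 to 1.72) over 698 and 1709 cells. At day 4 the G2/M ratio was 1.19 (1.14 to 1.24) over 270 and 3477 cells. Median depth was 11820 and 6663 UMIs for the Cxcl5 comparison, 11305 and 7653 for the S phase one at day 1, and 17329 and 9051 for the G2/M one at day 2. Of the 18 G2/M genes compared, 4 were at least 2-fold higher at day 1 and 5 lower, and the list summed to 39.1 CPM, against 46.8 in the quiescent library. Of the 16 S phase genes 14 were higher and 0 lower. The part of the cell cycle in the day 1 level was not tested beyond these values. In the comparisons by Cxcl5 and cycle genes Myc was left out of the member sums.

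Other genes of the pathway were mostly higher at day 1 too, with smaller medians than the 52, on the same background of 12.0% of genes higher and 26.1% lower. The 52 and these lists were chosen with earlier results of these data known. The part of that choice in the difference of medians was not tested. Of 35 other small subunit factors compared, 23 were at least 2-fold higher and 0 lower, with a median of 1.23 on the log2 scale, and of 42 other large subunit factors 27 were higher and 0 lower, with a median of 1.18. Mrto4, a placeholder for the ribosomal stalk protein, was 7.32-fold (6.40 to 8.40) higher, with 219 CPM at day 1, against 30.0 in quiescent cells, and Ftsj3 and Rpf2 were 5.83-fold and 5.09-fold higher. Pno1, a partner of Nob1, was 6.85-fold (5.73 to 8.26) higher, with 115 CPM against 16.8, and the processome proteins Wdr46 and Tbl3 were 5.66-fold and 4.34-fold higher. Of 11 other polymerase I subunits and factors only 4 were higher, with a median of 0.34, among them Cd3eap (3.55-fold), Tcof1 (2.98-fold) and Polr1d (2.28-fold).

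Of 13 exosome and trimming genes, whose products shorten RNA ends, 8 were at least 2-fold higher (12 with TMM and with DESeq2 factors), with a median of 1.08 on the log2 scale, led by Exosc2 at 3.61-fold, Exosc1 at 3.33-fold and Exosc3 at 2.97-fold. Of 9 assembly factors of small nucleolar ribonucleoproteins 5 were higher, with a median of 1.10, or 8 with TMM and with DESeq2 factors, and the paired ATPases Ruvbl2 and Ruvbl1 were 4.94-fold and 4.10-fold higher and Znhit6 2.19-fold. Translation factors, which use the finished ribosomes, had 11 of 17 higher and a median of 1.07, or 17 of 17 and a median of 1.62 with TMM and 1.65 with DESeq2 factors. Eif5a had 3105 CPM at day 1, against 496 in quiescent cells, a ratio of 6.26, and Eif4a1 and Eif2s1 were 4.97-fold and 4.43-fold higher. Of the 3 snoRNA host genes compared 0 were past 2-fold, with Snhg6 at 1.47-fold and Snhg12 at 1.03-fold. With TMM or DESeq2 factors 1 was past it. Beside the counts of these lists, 12.0% of all compared genes were at least 2-fold higher. The TMM and DESeq2 counts stand beside the larger shares given above for those factors.

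Of 7 partners of Myc compared, 0 were at least 2-fold higher at day 1 and 2 were lower, beside a background of 12.0% higher and 26.1% lower, so the count of lower genes is near the background. Their median was -0.73 on the log2 scale, against -0.29 for all compared genes. With TMM and DESeq2 factors 1 was higher and 1 lower, and the median was -0.24 and -0.21. Mxd4, which competes with Myc for Max and represses its targets, had 22.8 CPM at day 1, against 105 in quiescent cells, 4.62-fold lower (4.20 to 5.08). It then had 56.3 CPM at day 2, 79.5 at day 4 and 87.4 at day 14. Mga, another repressor of Max-bound genes, had 21.4 CPM at day 1, against 57.3 in quiescent cells, 2.68-fold lower (2.38 to 3.01). With TMM and DESeq2 factors Mxd4 was 3.16-fold and 3.10-fold lower, and Mga 1.84-fold and 1.80-fold, short of 2-fold. Mlx was 1.49-fold higher.

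All 52 genes are protein-coding in GENCODE M21 (GRCm38), and no exon of a member overlaps an exon of another listed gene on the same strand. Exons of 20 members, among them Rrp9, Zfp593, Nop56 (with Idh3b), Nhp2 (with Rmnd5b) and Dkc1 (with Mpp1), overlap a gene on the opposite strand, and whether counting used the strand is not given in the sources used here. Npm3 is the one member with a pseudogene named after it in that annotation, and any reads shared with that copy, which was not analysed here, leave the level of Npm3 uncertain. Pseudogenes under other names were not searched for any member.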

How the data were processed

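The values that the authors deposited are UMI counts for every gene and barcode in 5 libraries, whole numbers with a total of its own in each. Per the submitters' processing notes, Cell Ranger and mm10 were used, and the version was not given in the sources used here. Groups were taken from the labels. Of 17213 barcodes, 17085 had at least 500 genes and at most 10% mitochondrial UMIs, and the 6 that met both class rules were left out. Doublets were not removed, since no caller was run, and an alternative left out cells above the 95th percentile of UMIs. The quiescent library, with 7309210 UMIs in other cells, sets the precision. CPM, ratios and intervals (Poisson for levels, conditional binomial for ratios, Clopper-Pearson for shares) were computed from these counts with Python 3.11.15, numpy 2.4.6, scipy 1.17.1 and pandas 2.3.3. A prior of 1 CPM was added before log2 ratios were taken. edgeR 4.0.16 and DESeq2 1.42.0 (R 4.3.3) gave alternative scaling factors only. The calling script was tested on simulated counts.

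The 52 genes, the other lists and the markers were chosen with earlier results of these data known. Cell comparisons by Cxcl5, cycle genes or Myc, and the 2 sets of 26 genes, were chosen after the data were examined. Full values are given for Myc, the box C/D and H/ACA proteins, Ncl and Npm1, for the 3 highest and the lowest member at day 1 in each other role, and for members under 2-fold. Other lists give the 3 genes of largest log2 ratio at day 1 with a mean of at least 20 CPM, or fewer where fewer passed, and promoters are shown where CACGTG lay before the start. Utp4, Riok2, Gas5, Zfas1 and 8 of the Snhg hosts listed were not analysed here.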

Additional observations from a re-analysis of the deposited data

Results flagged for a closer look

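Noc4l, of the small subunit processome, moved in opposite directions in tenocytes and mural cells at day 14. In tenocytes it had 12.3 CPM at day 14 (52 UMIs), against 3.95 in the quiescent library (2 UMIs), and in mural cells 12.2 CPM at day 14 (10 UMIs), against 25.4 in the quiescent library (5 UMIs). The log2 ratios differ by 2.42, which rests on 2 and 5 UMIs in the quiescent library, and the difference was not tested.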

How the results depend on the processing

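With 1 library per group, no value has a replicate check. No paired analysis was possible because each group has 1 library. The count of 48 members at day 1 stayed between 38 (3-fold in place of 2-fold) and 52 (TMM or DESeq2 factors) in the 15 alternatives, and all 52 ratios stayed above 1 in the 10 that change ratios. The count of 18 at day 2 became 32 with TMM factors, 34 with DESeq2 factors, 8 in thinned cells, 2 without cells with G2/M UMIs, 36 at 1.5-fold and 3 at 3-fold. The count of 1 at day 4 became 3 with DESeq2 factors, 10 at 1.5-fold, and 0 at 3-fold, without the cells of most UMIs or without cells with G2/M UMIs, and the count of 0 at day 14 became 1 in thinned cells. The share of all compared genes changes with these settings too, and is given above only for day 1 with TMM and DESeq2 factors. The counts for other days and settings cannot be read against it. The summed day 1 ratio in other cells was 6.71 with TMM factors, 6.84 with DESeq2 factors, 5.02 without mitochondrial and ribosomal protein genes in the totals, 4.17 in thinned cells and 4.47 without the cells of most UMIs. In tenocytes it was 3.83, 3.84, 3.49 and 2.82 under the first 4 of these. In mural cells it was 2.42 with TMM factors, 2.43 with DESeq2 factors and 1.58 in thinned cells, where few quiescent cells reach 2500 UMIs. The summed day 14 ratio in other cells stayed between 1.06 and 1.07. The added count of members with at least 5 CPM in the quiescent library, chosen after seeing the data, was 46 at day 1. The cause of these shifts was not tested, apart from the smaller or larger fold that defines a call. The summed ratios given here and the day 1 ratios of members in other cells kept their direction, but 4 members at day 2 and 4 at day 4 that lay below quiescent lay above it with TMM or DESeq2 factors. Depth limits tenocytes and mural cells most, where 1 member or more had 1 UMI or fewer in the quiescent library.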
